A study of Mus musculus with 2 samples.

Results

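The transcripts of 84 protein and lipid kinase genes are described here, out of 3134 genes in a table of RNA recovered with the heterochromatin protein HP1 alpha. They were chosen by gene symbol alone, with prefixes such as Prk, Map3k, Pik3, Cdk and Csnk, and not by any measured value. All 84 were classed by symbol as genes of kinases or of their regulatory subunits, and whether each product is an active kinase was not examined. The kinase genes outside these prefixes are given further below as a list of their own. Kinases add phosphate groups to proteins or to membrane lipids and so switch signalling pathways on and off. Many act in relays, such as the MAP kinase cascade, in which a MAP3K phosphorylates a MAP2K and the MAP2K phosphorylates a MAPK, or the PI3K route, in which a lipid kinase makes a membrane signal that recruits AKT. In fibroblasts these relays carry growth factor, adhesion and stress signals.

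By its labels, the study used NIH3T3, an established mouse fibroblast line, in enhanced crosslinking and immunoprecipitation (eCLIP). In this method ultraviolet light ties proteins to the RNA they contact, and the RNA that comes down with the protein is sequenced. The HP1 alpha group is 1 library precipitated with an anti-HP1 alpha antibody, and the input group is 1 library with no antibody. The labels describe crosslinking, RNase digestion, a protein gel and recovery of RNA from the membrane above the HP1 alpha band, in the same words for both libraries. No genetic change or drug treatment is named for either group. The columns of the table name MEF in place of NIH3T3 and mock in place of input, and were assigned to these libraries by the closest label. Labels and columns thus differ on the cells, and which name holds was not tested. As bulk libraries they cannot tell a change per cell from a change in the number of cells. No value has a replicate, so whether a difference exceeds the spread between samples could not be tested, and no p-value is given.

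The listed counts sum to 513965 for HP1 alpha and 830031 for the input, and these sums, which are not sequencing depths, set the scale. A ratio is a gene's share of the listed counts in the HP1 alpha library over its share in the input, followed in brackets by its exact 95% counting interval. CPM means counts scaled to a listed total of 1000000 per library. A gene was called higher or lower when it passed 2-fold and its interval left out 1. Every listed gene has at least 100 counts in its better library, and the larger input fills this limit more easily. Among the 84 kinase genes, 54 reached 100 counts in both libraries, 29 did so in the input only and 1 (Vrk2) in the HP1 alpha library only. Of all 3134 listed genes, 1433 did so in the input only and 16 in the HP1 alpha library only. Of the 11 fibroblast markers, 8 were listed (among them Fn1, Col1a1 and Vim), and of the 4 immune, 4 epithelial and 4 endothelial markers 0 were. The 8 fibroblast markers summed to 6193 HP1 alpha and 12492 input counts, with 7 intervals below 1 (4 of them in all 5 scalings described below), and Thy1, Pdgfra and Fap had no row.

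Of the kinase genes, Vrk2, Prkce and Stk3 lay above 2-fold, and the other 81 lay within 2-fold of equal shares. Of the 84, 3 were called higher, or 3.57%, against 2.36% of all listed genes. Without Vrk2, whose call followed from the listing limit (below), it was 2 of 83, or 2.41%, close to that background. None was called lower (0 of 84), against 0.83% of all listed genes. By the looser rule of an interval wholly above 1, 22 of the 84 counted, or 26.2%, against 15.4% of all listed genes. An interval wholly below 1 was found for 15 of the 84, or 17.9%, against 32.6%. For the other 47 the interval contained 1. The median log2 ratio was -0.062 over the kinase genes and -0.21 over all listed genes, and 40 of the 84 ratios were above 1. Kinase genes were also longer than the table as a whole, with a median span of 69.3 kb against 48.2 kb for all listed genes, and longer genes had larger ratios. The same shares relative to genes of like span are given further below.

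How far these counts depend on the scale differed by direction. The 4 other scalings tried moved every ratio up by the same factor, by 0.20 on the log2 scale with TMM factors, 0.21 with DESeq2 size factors, 0.041 with the authors' constant and 0.01 without the 10 most abundant genes. The 22 members with intervals above 1 therefore kept them in every scaling. Of the 44 ratios under 1, 15 were above 1 with TMM factors and the same number with DESeq2 factors. Of the 15 with intervals below 1, 9 kept them in all 5 scalings, or 10.7% of the 84, against 12.4% of all listed genes. Among these 9 were Hipk1, Map4k2, Csnk1a1, Cdk12, Rps6ka3, Pik3r2, Wnk1 and Cdk16. The other 6 (Akt1, Hipk3, Csnk1e, Mapk8, Map3k12 and Cdk4) had intervals that reached 1 under DESeq2 factors. Among the kinase genes the 2-fold calls stayed at 3 higher and 0 lower in each of the 5 scalings. Over all 3134 listed genes, 74 were called higher by the listed totals, 127 with TMM factors and 132 with DESeq2 factors. The kinase share of 3.57% was thus above that of all listed genes by the listed totals and below it with TMM or DESeq2 factors. Lower calls over all listed genes fell from 26 to 9 with either.

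**Figure D1:**
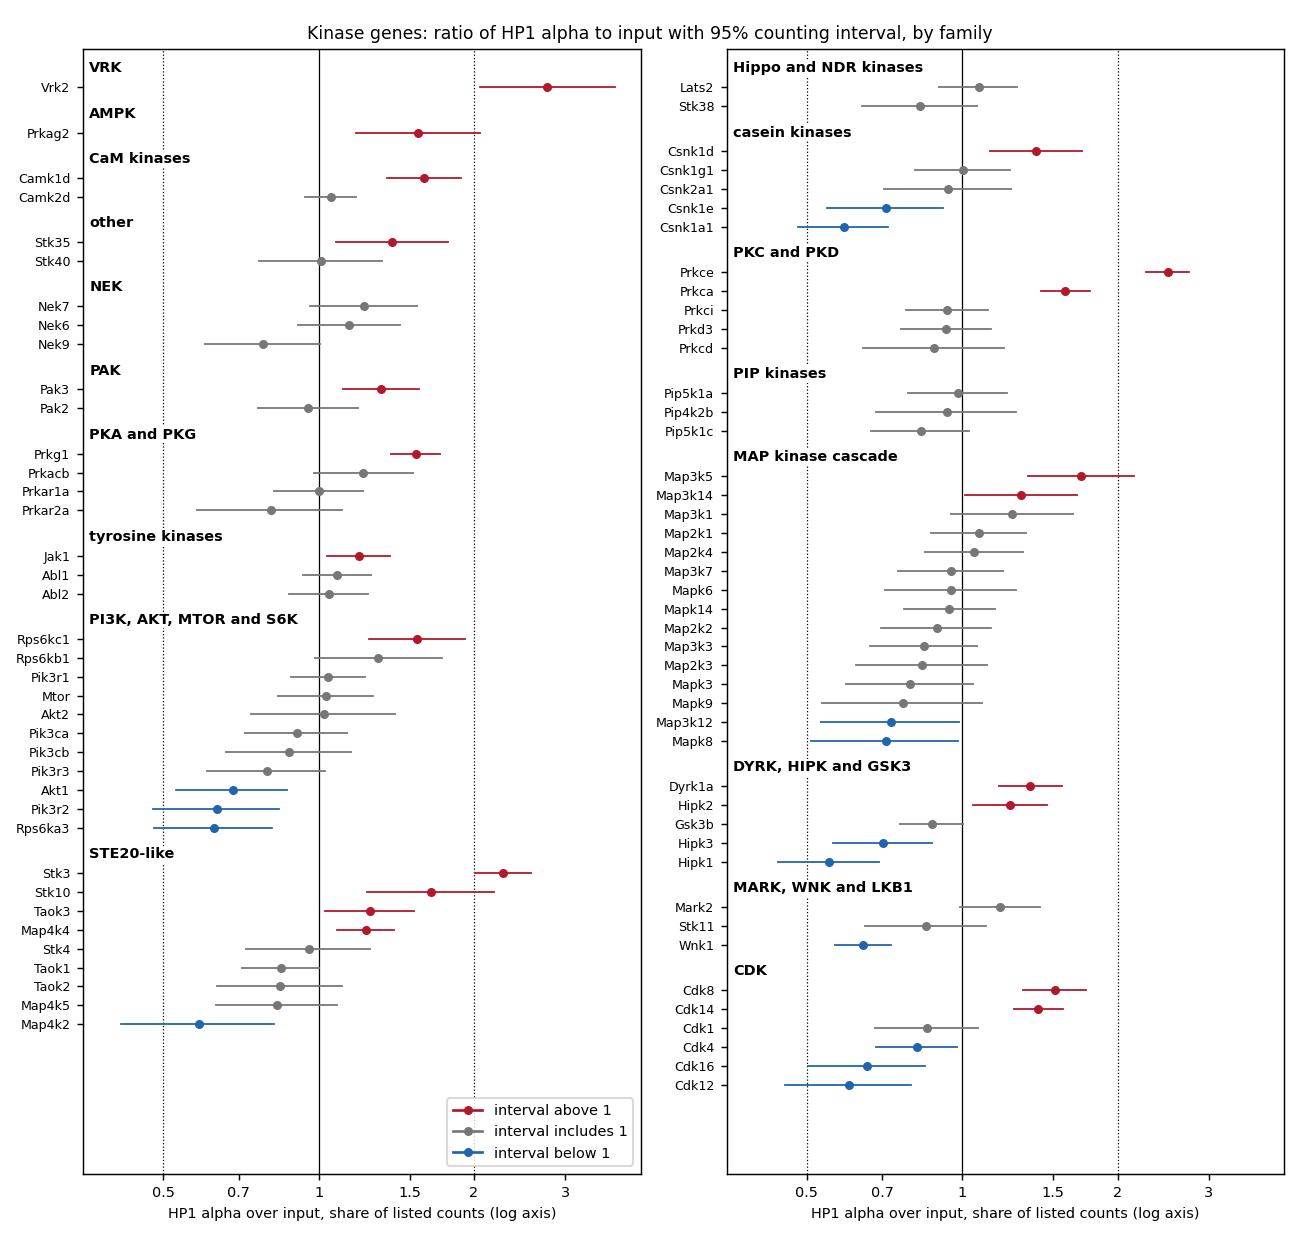
Ratio of HP1 alpha to input for 82 of the 84 kinase genes (points, log axis) with its 95% counting interval (lines), grouped by family and ordered by family median. Vrk2, Prkce and Stk3 lie beyond the dotted line at 2, no gene lies below the dotted line at 0.5, and 8 of the 18 family medians over all 84 genes lie above 1.

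Together the 84 genes held 15669 of the HP1 alpha counts and 22654 of the input counts, which is 3.05% (3.002 to 3.096, exact binomial) and 2.73% (2.694 to 2.765) of the listed totals. The ratio of these shares was 1.12 (1.09 to 1.14). Without Vrk2, Prkce and Stk3 it was 1.04 (1.02 to 1.07). The 11 kinase genes that span more than 200 kb carried 33.1% of the kinase HP1 alpha counts and 22.7% of the kinase input counts. The 10 members with the largest mean CPM were Prkce, Prkca, Prkg1, Cdk14, Camk2d, Wnk1, Stk3, Map4k4, Gsk3b and Jak1, and all 10 span more than 100 kb.

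**Figure D2:**
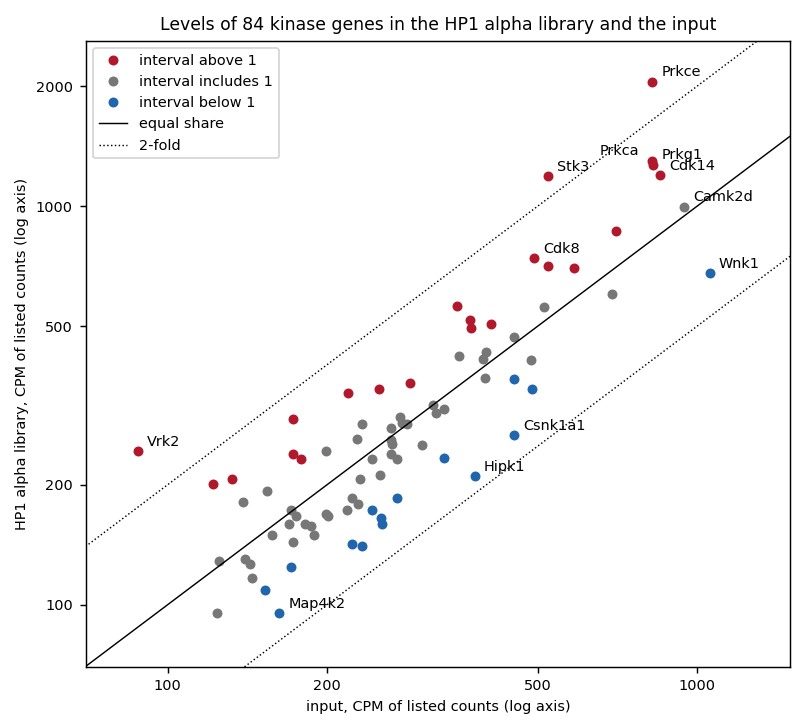
Level of each of the 84 kinase genes in the HP1 alpha library (vertical axis) against the input (horizontal axis), both in CPM on log axes, coloured by where the counting interval of the ratio lies. Prkce and Stk3 stand above the 2-fold line at high levels and Vrk2 at a low level, while Wnk1 is the most abundant gene on the lower side.

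The gene with the highest kinase ratio was Vrk2, which encodes a serine/threonine kinase of the vaccinia-related family anchored in the endoplasmic reticulum and nuclear envelope. It had 125 HP1 alpha counts and 73 input counts, or 243 and 87.9 CPM, which gives 2.77 (2.06 to 3.74) as its ratio, rank 8 of the 3134 genes. Its position in GRCm38.p6 is chromosome 11, 26471398 to 26594012. It was listed only through the HP1 alpha library. At its input count, the limit of 100 admits no ratio under 2.21, so its call as higher followed from the limit. Its position also touches that of Fancl, a gene for a ubiquitin ligase of DNA crosslink repair that has no row in the table.

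Protein kinase C epsilon is a calcium-independent isoform activated by diacylglycerol, and its gene Prkce was the kinase gene with the most HP1 alpha counts. It had 1055 counts in the HP1 alpha library against 683 in the input, or 2053 and 823 CPM, with a ratio of 2.49 (2.26 to 2.75). The gene (chromosome 17, 86167785 to 86657919) spans 490.1 kb. Stk3, which encodes the Hippo pathway kinase MST2 that activates the LATS kinases, had a ratio of 2.28 (2.01 to 2.58) from 612 HP1 alpha and 434 input counts. Its 280.4 kb run over chromosome 15, 34875499 to 35155882. Both genes were well above the listing limit in each library, and no listed gene overlapped either.

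Among kinases that answer to second messengers, the protein kinase C genes split by isoform. Prkca, the classical calcium-dependent isoform, had 669 HP1 alpha counts and 683 input counts, a ratio of 1.58 (1.42 to 1.76). Prkca and Prkce had the same input count, so their difference lies wholly in the HP1 alpha library. Prkci, the atypical isoform of cell polarity complexes, had a ratio of 0.935 (0.778 to 1.12) from 191 HP1 alpha and 330 input counts. Prkcd, another calcium-independent isoform, had 0.882 (0.642 to 1.20) from 65 HP1 alpha and 119 input counts. Prkd3, of the related protein kinase D family, had 0.930 (0.761 to 1.13) from 159 HP1 alpha and 276 input counts. These 3 intervals contained 1, and all 3 ratios turned above 1 with TMM and DESeq2 factors. The family's share ratio was 1.65 (1.55 to 1.76), though its median log2 ratio was -0.096, with most of its counts in Prkce and Prkca.

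Cyclic nucleotide kinases were led by Prkg1, the cGMP-dependent kinase of smooth muscle relaxation and the longest kinase gene here at 1200.8 kb. It had 653 HP1 alpha counts against 684 input counts and a ratio of 1.54 (1.38 to 1.72). For protein kinase A, the catalytic subunit gene Prkacb had 1.22 (0.979 to 1.52) from 146 HP1 alpha and 193 input counts. The products of the regulatory subunit genes Prkar1a and Prkar2a hold the enzyme inactive until cAMP binds. Prkar1a had 1.001 (0.818 to 1.22) from 163 HP1 alpha and 263 input counts, and Prkar2a had 0.807 (0.582 to 1.11) from 60 HP1 alpha and 120 input counts, few enough HP1 alpha counts that the listing limit fixed a ratio under 1. None of these protein kinase A intervals left out 1. Prkag2, a regulatory subunit gene of the energy sensor AMPK, had 1.56 (1.18 to 2.05) from 106 HP1 alpha and 110 input counts. Of the calmodulin-dependent kinase genes, Camk1d had 1.60 (1.35 to 1.89) from 289 HP1 alpha and 292 input counts. Camk2d, with more counts in both libraries, had 1.06 (0.943 to 1.18) from 512 HP1 alpha and 783 input counts.

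The MAP kinase cascade had 16 listed genes, of which 2 had intervals above 1 and 3 below 1, against 15.4% and 32.6% of all listed genes. Its last tier, the MAPKs that carry the signal to transcription factors and other targets, had 0 of 6 ratios above 1. The tier's median ratio was 0.78, though Mapk14 and Mapk6 turned above 1 with TMM and DESeq2 factors. Against genes of like span, a scale described below, the tier was not low. There its median log2 ratio was 0.017, with 1 interval below 1 and 0 above. Mapk3, the gene of ERK1, had 0.792 (0.595 to 1.05) from 77 HP1 alpha and 157 input counts. The stress-activated JNK genes were low in both libraries. Mapk8 had 0.712 (0.510 to 0.983) from 56 HP1 alpha and 127 input counts, and Mapk9 had 0.768 (0.535 to 1.09) from 49 HP1 alpha and 103 input counts. Their HP1 alpha counts are so few that a ratio under 1 followed from the listing limit. The p38 alpha gene Mapk14 had 0.944 (0.769 to 1.15) from 156 HP1 alpha and 267 input counts. Mapk6, the gene of the atypical kinase ERK3, had 0.949 (0.707 to 1.27) from 77 HP1 alpha and 131 input counts.

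The upstream tiers were nearer to 1 or above it. The 4 MAP2K genes had a median ratio of 0.973, and each interval contained 1. Of the ERK activators, Map2k1 had 1.08 (0.871 to 1.33) from 152 HP1 alpha and 228 input counts and Map2k2 had 0.892 (0.697 to 1.14) from 106 HP1 alpha and 192 input counts. The p38 activator Map2k3 had 0.836 (0.622 to 1.11) from 74 HP1 alpha and 143 input counts. Map2k4, which acts on JNK and p38, had 1.05 (0.848 to 1.31) from 143 HP1 alpha and 219 input counts. The 6 MAP3K genes had a median ratio of 1.10. Map3k5, the gene of the stress kinase ASK1, had 1.69 (1.34 to 2.15) from 150 HP1 alpha and 143 input counts, the largest ratio in the cascade. Map3k14, the gene of NIK in the noncanonical NF-kappa B pathway, had 1.30 (1.01 to 1.66) from 119 HP1 alpha and 148 input counts. Map3k1, the gene of MEKK1, had 1.25 (0.951 to 1.64) from 99 HP1 alpha and 128 input counts. Map3k7, the gene of TAK1 in TGF beta and cytokine signalling, had 0.951 (0.752 to 1.20) from 119 HP1 alpha and 202 input counts. Map3k3, the gene of MEKK3, had 0.842 (0.662 to 1.07) from 109 HP1 alpha and 209 input counts. Map3k12, the gene of the axon injury kinase DLK, had 0.728 (0.533 to 0.984) from 64 HP1 alpha and 142 input counts. Map2k2 and Map3k7 turned above 1 with TMM and DESeq2 factors. Against genes of like span, the median log2 ratio was 0.15 for the MAP2K genes and 0.26 for the MAP3K genes. Differences between the tiers were not tested.

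The 9 STE20-like kinase genes encode kinases that act above MAPK cascades and in the Hippo pathway. Of these genes, 4 had intervals above 1 and 1 below, against 15.4% and 32.6% of all listed genes. Beside Stk3, the genes above 1 were Stk10, Map4k4 and Taok3. Stk10, the gene of the lymphocyte-oriented kinase LOK, had 1.65 (1.24 to 2.19) from 103 HP1 alpha and 101 input counts. Map4k4, a kinase gene of cell migration, had 1.23 (1.09 to 1.40) from 445 HP1 alpha and 583 input counts. Taok3, of the thousand-and-one kinases, had 1.26 (1.03 to 1.53) from 185 HP1 alpha and 238 input counts. Map4k2 was the gene below 1, with 0.586 (0.414 to 0.818) from 49 HP1 alpha and 135 input counts, and its low HP1 alpha count fixed its side of 1 through the listing limit. Stk4, the MST1 gene and close relative of Stk3, had 0.958 (0.725 to 1.26) from 86 HP1 alpha and 145 input counts. Map4k5 had 0.832 (0.634 to 1.09) from 86 HP1 alpha and 167 input counts. Taok1 had 0.846 (0.712 to 1.001) from 211 HP1 alpha and 403 input counts, and Taok2 had 0.844 (0.637 to 1.11) from 81 HP1 alpha and 155 input counts. These 4 intervals contained 1. Further down the Hippo pathway, Lats2, whose product phosphorylates the coactivator YAP, had 1.08 (0.903 to 1.28) from 221 HP1 alpha and 332 input counts. The related NDR kinase gene Stk38 had 0.829 (0.641 to 1.07) from 95 HP1 alpha and 185 input counts. The p21-activated kinases are effectors of Rac and Cdc42. Pak3 had 1.32 (1.11 to 1.56) from 254 HP1 alpha and 311 input counts, above 1, and Pak2 had 0.954 (0.762 to 1.19) from 130 HP1 alpha and 220 input counts.

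The PI3K, AKT, MTOR and S6 kinase family had 12 genes, with 2 intervals above 1, 3 below and 7 that contained 1. Of all listed genes, 15.4% had an interval above 1 and 32.6% below. The products of the catalytic subunit genes make the lipid PIP3. Pik3ca had a ratio of 0.907 (0.721 to 1.14) from 123 HP1 alpha and 219 input counts, and Pik3cb had 0.877 (0.662 to 1.16) from 82 HP1 alpha and 151 input counts. The regulatory subunits hold the catalytic ones and bring them to receptors. Pik3r1 had 1.04 (0.883 to 1.23) from 242 HP1 alpha and 375 input counts, and Pik3r3 had 0.794 (0.609 to 1.03) from 89 HP1 alpha and 181 input counts. Pik3r2 had 0.637 (0.479 to 0.840) from 73 HP1 alpha and 185 input counts, the regulatory subunit gene of this family with an interval below 1. AKT kinases act on the PIP3 signal. Akt2 had 1.02 (0.741 to 1.41) from 66 HP1 alpha and 104 input counts. Akt1 had 0.682 (0.531 to 0.870) from 95 HP1 alpha and 225 input counts, below 1, and the interval of their quotient contained 1.

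Mtor, the kinase of nutrient sensing, had 1.03 (0.833 to 1.28) from 147 HP1 alpha and 230 input counts. The gene of its target S6 kinase, Rps6kb1, had 1.31 (0.983 to 1.73) from 93 HP1 alpha and 115 input counts. Rps6kc1, whose product carries a lipid-binding PX domain, had 1.55 (1.25 to 1.92) from 175 HP1 alpha and 182 input counts. Rps6ka3, the gene of the ERK target RSK2, lay on the other side of 1 with 0.628 (0.480 to 0.814) from 82 HP1 alpha and 211 input counts. The PIP kinase genes encode phosphoinositide kinases that make PIP2. Pip5k1a had 0.981 (0.785 to 1.22) from 133 HP1 alpha and 219 input counts. Pip4k2b had 0.933 (0.680 to 1.27) from 67 HP1 alpha and 116 input counts. Pip5k1c had 0.830 (0.666 to 1.03) from 129 HP1 alpha and 251 input counts, and each of these intervals contained 1. Over the 5 catalytic lipid kinase genes the median ratio was 0.907, within a range of 0.83 to 0.981, and all but Pip5k1c turned above 1 with TMM and DESeq2 factors.

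Among the 6 cyclin-dependent kinase genes, 2 had intervals above 1 and 3 below, against 15.4% and 32.6% of all listed genes. Cdk8, the kinase of the Mediator complex, had 381 HP1 alpha counts and 408 input counts, which gives 1.51 (1.31 to 1.74) as its ratio. Cdk14, a membrane-tethered relative that acts with cyclin Y in Wnt signalling, had 1.40 (1.26 to 1.56) from 614 HP1 alpha and 707 input counts. Both genes were above 1. Of the cell cycle engines, Cdk4, which drives entry into S phase, had 0.816 (0.681 to 0.975) from 189 HP1 alpha and 374 input counts. The mitotic kinase gene Cdk1 had 0.854 (0.678 to 1.07) from 119 HP1 alpha and 225 input counts, an interval that contained 1. Cdk12, which phosphorylates RNA polymerase II during elongation, had 0.602 (0.453 to 0.794) from 72 HP1 alpha and 193 input counts. Cdk16, which like Cdk14 works with cyclin Y, had 0.654 (0.502 to 0.845) from 85 HP1 alpha and 210 input counts. The NEK family acts in mitosis. Nek7 had 1.22 (0.962 to 1.55) from 125 HP1 alpha and 165 input counts, and Nek6 had 1.15 (0.911 to 1.44) from 134 HP1 alpha and 189 input counts. Nek9, the gene of their activator, had 0.782 (0.603 to 1.01) from 92 HP1 alpha and 190 input counts, and each of these intervals contained 1.

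The DYRK, HIPK and GSK3 family held genes on both sides of 1. Dyrk1a, a dosage-sensitive gene of the Down syndrome region in humans, had 1.35 (1.18 to 1.56) from 364 HP1 alpha and 434 input counts. The homeodomain-interacting kinases are nuclear regulators of transcription. Hipk2 had 1.24 (1.05 to 1.46) from 260 HP1 alpha and 339 input counts, and Hipk3 had 0.702 (0.562 to 0.873) from 120 HP1 alpha and 276 input counts. Hipk1 had the lowest ratio of all 84 genes, 0.552 (0.439 to 0.689) from 108 HP1 alpha and 316 input counts. Gsk3b, the kinase that marks beta-catenin for destruction, had 0.872 (0.757 to 1.004) from 309 HP1 alpha and 572 input counts.

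Casein kinase genes also differed. Csnk1d, a kinase gene of the circadian clock, had 1.39 (1.13 to 1.71) from 179 HP1 alpha and 208 input counts. Its clock partner Csnk1e had 0.712 (0.548 to 0.917) from 89 HP1 alpha and 202 input counts. Csnk1a1, which primes beta-catenin for Gsk3b, had 0.590 (0.482 to 0.719) from 137 HP1 alpha and 375 input counts. Csnk1g1 had 1.003 (0.810 to 1.24) from 146 HP1 alpha and 235 input counts. Csnk2a1, the gene of a casein kinase 2 catalytic subunit, had 0.939 (0.706 to 1.24) from 82 HP1 alpha and 141 input counts. Csnk1d was the only kinase gene whose position overlapped another listed gene. It shares 1292 bases with Slc16a3, whose ratio was 0.679 (0.478 to 0.952) from 50 HP1 alpha and 119 input counts.

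Wnk1, a regulator of cation-chloride cotransporters, had the most input counts of the 84 genes, and its ratio of 0.643 (0.566 to 0.728) from 349 HP1 alpha and 877 input counts was below 1 in all 5 scalings. The microtubule affinity kinase gene Mark2 had 1.18 (0.987 to 1.41) from 216 HP1 alpha and 295 input counts. Stk11, the gene of the tumour suppressor LKB1 that activates AMPK and MARK kinases, had 0.852 (0.649 to 1.11) from 87 HP1 alpha and 165 input counts. Of the tyrosine kinase genes, Jak1, which carries cytokine receptor signals, had 1.20 (1.04 to 1.37) from 359 HP1 alpha and 485 input counts. The Abelson genes regulate the actin cytoskeleton. Abl1 had 1.09 (0.931 to 1.26) from 287 HP1 alpha and 427 input counts, and Abl2 had 1.05 (0.877 to 1.25) from 212 HP1 alpha and 327 input counts. In the remaining group, Stk35 had 1.39 (1.08 to 1.78) from 123 HP1 alpha and 143 input counts and Stk40 had 1.01 (0.768 to 1.33) from 89 HP1 alpha and 142 input counts.

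Some closely related genes differed from each other in ratio. For 23 pairs of relatives, chosen with the values known, the ratio of the longer gene was divided by that of the shorter gene, and an exact conditional interval was taken from the 4 counts. The interval left out 1 in 11 of the 23 pairs, with no adjustment for their number, and these values do not depend on the scaling. In 10 of these 11 the longer gene had the larger ratio. Some genes, such as Prkca, enter several pairs, so the pairs are not separate observations. Pairs of unrelated genes were not compared, so how often relatives differ beyond other genes was not tested. The quotient was 2.38 (1.76 to 3.23) for Stk3 over Stk4, 2.24 (1.70 to 2.98) for Hipk2 over Hipk1 and 2.14 (1.62 to 2.86) for Cdk14 over Cdk16. It was 1.63 (1.18 to 2.28) for Pik3r1 over Pik3r2.

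Within the protein kinase C genes it was 1.58 (1.36 to 1.83) for Prkce over Prkca, 1.79 (1.29 to 2.51) for Prkca over Prkcd and 1.69 (1.37 to 2.10) for Prkca over Prkci. Smaller quotients were found for Taok3 over Taok1 at 1.48 (1.14 to 1.93), Map4k4 over Map4k5 at 1.48 (1.10 to 2.002) and Pak3 over Pak2 at 1.38 (1.04 to 1.83). The exception was Csnk1e over Csnk1d at 0.512 (0.367 to 0.713), a pair of nearly equal length (37.7 and 33.6 kb). Several quotients were smaller when each gene was first set against listed genes of like span, a scale described below. On it the quotient was 0.992 for Prkca over Prkcd, 1.01 for Prkca over Prkci and 1.06 for Cdk14 over Cdk16. Pak3 over Pak2 turned to the other side of 1 at 0.878. Stk3 over Stk4 was 1.54, and Hipk2 over Hipk1 was 1.503. For the remaining 12 pairs the interval contained 1. Among them Abl1 over Abl2 was 1.04 (0.820 to 1.31), Pik3cb over Pik3ca was 0.967 (0.672 to 1.39) and Mapk8 over Mapk9 was 0.927 (0.568 to 1.51), so differences of the size seen for Stk3 and Stk4 lie outside these intervals.

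**Figure D3:**
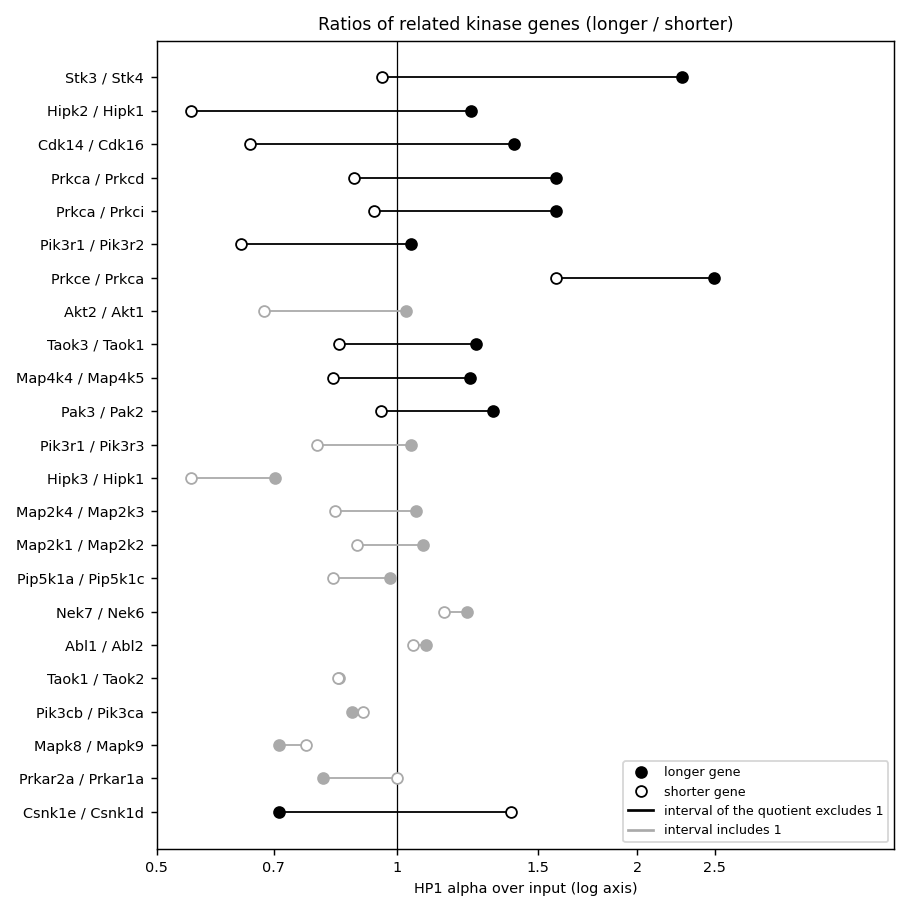
Ratio of HP1 alpha to input (log axis) of the longer gene (filled points) and the shorter gene (open points) in 23 pairs of related kinase genes. Black marks the 11 pairs whose quotient has an interval that leaves out 1, and in 10 of them the filled point lies to the right.

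The ratios of the kinase genes followed gene span, which is the distance from the first to the last base with introns included. Across the 84 genes, Pearson's r between log10 span and log2 ratio was 0.60 and Spearman's rank coefficient was 0.61, and the 3089 listed genes with a known span had the same values. These are descriptions across genes of the same 2 libraries. Among the 14 kinase genes of up to 25 kb the median ratio was 0.826, 0 intervals were above 1 and 6 were below. It was 0.933 for the 15 genes from 25 to 50 kb, 0.939 for the 27 from 50 to 100 kb and 1.15 for the 17 from 100 to 200 kb. Among the 11 genes above 200 kb the median was 1.56, 10 intervals were above 1 and 0 were below, and Camk2d was the gene whose interval contained 1. All listed genes had medians of 0.75, 0.811, 0.89, 1.07 and 1.40 in these ranges, so the kinase median was above that of all listed genes in each. Interval counts ran the same way over the whole table. Of all 896 listed genes of up to 25 kb, 10 intervals were above 1 and 474 below. Of the 298 above 200 kb, 211 were above 1 and 8 below.

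**Figure D4:**
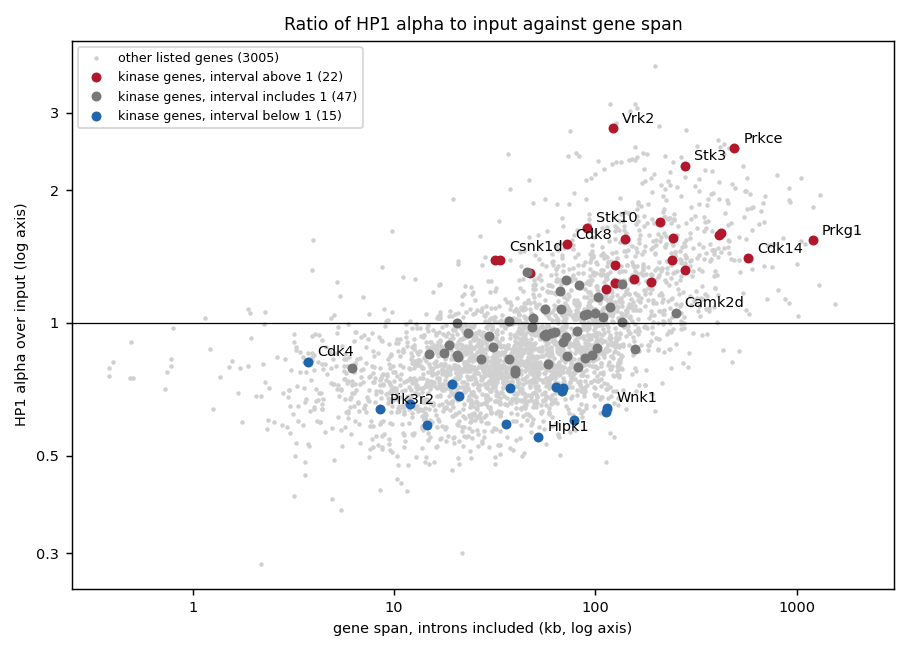
Ratio of HP1 alpha to input against gene span (kb, introns included), both on log axes, for the 84 kinase genes (coloured by where the counting interval lies) and the other listed genes with a known span (light grey). Kinase genes above 200 kb lie above 1, the shortest lie at or below it, and Vrk2, Stk10, Cdk8 and Csnk1d lie high for their length.

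Set against the median of the 200 listed genes nearest in span, some members still stood apart and others did not. This relative ratio does not depend on the scaling. The interval of this relative ratio was above 1 for 19 of the 84 genes, or 22.6%, against 15.4% of the genes with a span, and below 1 for 9, or 10.7%, against 11.8%. Of the 22 genes with an interval above 1 as measured, 13 kept it on this scale. Vrk2 stood highest at 2.67 (1.98 to 3.61), where genes of its length had a median ratio of 1.04, and it was the only kinase gene past 2-fold here. The listing limit admits no relative ratio under 2.13 at its input count, so this too followed from the limit. Prkce was at 1.73 (1.57 to 1.90) and Stk3 at 1.66 (1.46 to 1.88), both under 2-fold, where genes of their length had medians of 1.45 and 1.37. Genes of moderate or short length reached like values. Stk35 was at 1.76 (1.37 to 2.25), Stk10 at 1.75 (1.32 to 2.32), Csnk1d at 1.74 (1.42 to 2.14) and Cdk8 at 1.69 (1.46 to 1.95). The NIK gene Map3k14 was at 1.55 (1.20 to 1.98) and Rps6kb1, which did not stand apart as measured, at 1.55 (1.16 to 2.05).

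The 9 genes whose interval held on the measured scale alone were mostly long. They included Prkca at 1.11 (0.994 to 1.23), Prkg1 at 1.07 (0.956 to 1.19) and Camk1d at 1.12 (0.947 to 1.32) relative to genes of their span. Cdk14, Pak3 and Hipk2 moved to the other side of 1, at 0.966 (0.866 to 1.08), 0.960 (0.810 to 1.14) and 0.984 (0.834 to 1.16). At the low end, Rps6ka3 was at 0.628 (0.480 to 0.814), Wnk1 at 0.636 (0.560 to 0.721), Hipk1 at 0.654 (0.521 to 0.817), Cdk12 at 0.662 (0.498 to 0.873) and Csnk1a1 at 0.726 (0.593 to 0.886). Hipk3 at 0.782 (0.626 to 0.972) was also below 1 both ways. Gsk3b and Camk2d joined them on this scale only, at 0.752 (0.653 to 0.865) and 0.785 (0.701 to 0.878). The short genes Cdk4, Cdk16, Pik3r2, Akt1 and Map4k2, which were low as measured, had relative intervals that contained 1.

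Per kilobase of span, the level of kinase RNA covered a wide range. Cdk4, the shortest gene at 3.75 kb, had 98.0 CPM per kb by HP1 alpha counts and 120.0 by input counts. Prkag2 had the lowest HP1 alpha level of the 84 at 0.847 CPM per kb, against 0.544 in the input. Prkce, first by counts, had 4.19 and 1.68, and Prkg1 had 1.06 and 0.686. The sources used here do not say if exons or whole gene bodies were counted, so these levels per kb hold for counting over gene bodies only. Of the 84 spans, 56 overlap another RefSeq gene of either strand, and 13 contain or touch a microRNA or snoRNA gene, such as Mir744 in Map2k4 and Mir706 in Wnk1. Reads from such genes cannot be told apart from kinase reads here. The same overlaps were not counted over all listed genes, so whether 56 and 13 of 84 are usual was not tested.

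Partners of these kinases were taken from 5 lists, and 0 of the listed partners were called higher or lower. Of all listed genes, 2.36% were called higher and 0.83% lower. With 9 to 15 listed genes in each list, few calls or none would be met at these shares. For the interval counts of the 5 lists, the shares over all listed genes were 15.4% above 1 and 32.6% below 1. In the list around RAS, 12 of 24 genes were listed, with 1 interval above 1 and 2 below, 0 of these 2 in all 5 scalings. The scaffold gene Ksr1 had 1.53 (1.27 to 1.84) from 225 HP1 alpha and 238 input counts. Spred1, an inhibitor of RAS signalling, had 0.723 (0.549 to 0.944) from 81 HP1 alpha and 181 input counts. In the list around PI3K and MTOR, 15 of 23 were listed, with 6 intervals above 1 and 1 below and a median ratio of 1.19. The interval below 1, that of Grb10, reached 1 in other scalings. Rptor, the defining subunit of MTOR complex 1, had 1.56 (1.35 to 1.81) from 361 HP1 alpha and 373 input counts. Pdpk1, the kinase that activates AKT, had 1.35 (1.14 to 1.60) from 256 HP1 alpha and 306 input counts. The AKT targets Foxo1 and Foxo3 had ratios of 1.30 (1.03 to 1.63) and 1.25 (1.05 to 1.48). Grb10, an adaptor that dampens insulin signalling, had 0.811 (0.729 to 0.901) from 525 HP1 alpha and 1046 input counts. Relative to genes of like span this list had 4 intervals above 1 and 1 below, against 15.4% and 11.8% of genes with a span. Rptor was then at 1.13 (0.975 to 1.31) and Pdpk1 at 1.52 (1.28 to 1.80).

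Of the Hippo partners, 11 of 15 were listed, with Tead1, the DNA-binding partner of YAP, at 1.38 (1.25 to 1.53) and Mob1b, a cofactor of the LATS kinases, at 0.661 (0.469 to 0.920), below 1 but not in all 5 scalings. Relative to genes of like span both intervals contained 1, with Tead1 at 1.06 (0.962 to 1.17) and Mob1b at 0.807 (0.573 to 1.12). Of the adhesion and cytoskeleton partners, 13 of 20 were listed, with 2 intervals above 1 and 3 below, 1 of these 3 in all 5 scalings. Fyn, a Src family kinase, had 1.69 (1.38 to 2.05), the adhesion adaptor Pxn had 1.25 (1.03 to 1.51), and Tln1, the integrin activator talin, had 0.721 (0.651 to 0.798). Of the cyclins and inhibitors of cyclin-dependent kinases, 9 of 23 were listed, with 0 intervals above 1 and 4 below, 2 of them in all 5 scalings. Ccna2 had 0.690 (0.552 to 0.860) and Ccnl2 had 0.605 (0.470 to 0.773). Cdkn1b and Cdkn2c, the genes of inhibitors p27 and p18, had 0.798 (0.637 to 0.995) and 0.738 (0.577 to 0.938). Cdkn2a, another inhibitor gene of the list, had 1.05 (0.894 to 1.23) from 255 HP1 alpha and 392 input counts. This list's median span of 16.1 kb was the shortest of the 5, and its median ratio was 0.801. Relative to genes of like span the direction turned, with 2 intervals above 1, 0 below and a median log2 ratio of 0.13.

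Kinase genes outside the symbol prefixes covered a similar range. Of 191 such symbols, 72 were listed, a few of them shared with the partner lists. Their median log2 ratio was -0.091, with 2 called higher and 0 lower, 17 intervals above 1 and 16 below, against 15.4% and 32.6% of all listed genes. In all 5 scalings 17 stayed above 1 and 5 below. The 2 were the receptor genes Ror1, with 2.22 (1.75 to 2.82) from 172 HP1 alpha and 125 input counts, and Ror2, with 2.10 (1.88 to 2.34) from 775 HP1 alpha and 596 input counts, which encode related receptors for Wnt5a. Relative to genes of like span neither was past 2-fold, at 1.59 for Ror1 and 1.70 for Ror2. The largest HP1 alpha count of this list was that of the growth factor receptor gene Egfr, with 1.24 (1.14 to 1.36) from 883 HP1 alpha and 1146 input counts. At the other end were Ephb4, an ephrin receptor gene, with 0.548 (0.417 to 0.714) from 76 HP1 alpha and 224 input counts, and Sgk1, a kinase gene induced by glucocorticoids, with 0.561 (0.408 to 0.763) from 57 HP1 alpha and 164 input counts. Relative to genes of like span the list had 14 intervals above 1 and 13 below, against 15.4% and 11.8% of genes with a span. Egfr was then at 1.05 (0.963 to 1.15), Ephb4 at 0.686 (0.521 to 0.893) and Sgk1 at 0.552 (0.401 to 0.750).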

How the data were processed

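Read counts per gene were deposited by the authors in 1 table with a column for each library. Per the submitters' processing notes, the tools were featureCounts and STAR 2.6.0c, on mouse build GRCm38. The notes used here do not say how strand, duplicate reads, exons or introns were handled. The authors' deposited ratio is in every row the quotient of both counts times a constant (1.66), which the header ties to total mapped reads, and it served as an alternative scaling. All columns of sample values were used, so the number left out is 0.

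Symbols were matched to RefSeq genes of GRCm38.p6, 2969 by symbol and 120 by synonym, with 45 unmatched. All 84 kinase genes matched by symbol. Counts were divided by the listed totals, and the 2-fold rule used log2 ratios with a pseudocount of 0.5. The 95% Clopper-Pearson intervals cover counting error only, not the spread between libraries. Reads may include PCR copies, in which case the intervals are too narrow even for counting error. TMM factors came from edgeR 4.0.16 and size factors from DESeq2 1.42.0, with no model fitted. Counts are given for kinase genes called, highest, lowest or most abundant, for leaders of families and for those listed through 1 library, and other kinase genes have at least their ratio. A few genes of the lists enter counts and medians only and are not reported here by name. Genes of the other lists were named after their values were seen. Members, lists, pairs and alternatives were chosen with earlier results of these data known.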

Additional observations from a re-analysis of the deposited data

How the results depend on the processing

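No paired analysis was possible because neither group has a second library. The 3 kinase genes called higher became 1 against genes of like span and 11 with a 1.5-fold threshold, which also called 8 lower in place of 0. Over all 3134 listed genes the 74 called higher became 38 of the 3089 with a span against genes of like span. Shares over all listed genes are not given here for the 1.5-fold threshold or the count minimum. Kinase intervals above 1 numbered 22, against 34 by DESeq2 factors and 14 among the 31 kinase genes that sum to 400 counts or more. Over all listed genes such intervals numbered 484, against 750 by DESeq2 factors. Kinase intervals below 1 numbered 15, against 9 by DESeq2 factors, 5 among genes of 400 counts or more and 9 against genes of like span. Over all listed genes these numbered 1023, against 389 by DESeq2 factors and 363 against genes of like span. The kinase median log2 ratio of -0.062 turned positive by TMM factors (0.14), by DESeq2 factors (0.15), among genes of 400 counts or more (0.12) and against genes of like span (0.13). It was -0.021 by the authors' constant and -0.026 without the 5 genes whose side of 1 the listing limit fixes, a setting chosen after seeing the data. The share ratio of 1.12 was 1.28 by TMM factors, 1.29 by DESeq2 factors, 1.15 by the authors' constant, 1.22 among genes of 400 counts or more and 1.09 against genes of like span. Leaving out Vrk2, Prkce and Stk3, also chosen after seeing the data, gave 1.04. Family medians were above 0 in 8 of 18 families, in 16 by TMM or DESeq2 factors and in 15 against genes of like span. List medians were above 0 in 1 of 6 lists, in 4 by TMM or DESeq2 factors and in 5 both among genes of 400 counts or more and against genes of like span. Each scaling shifts all log2 ratios equally, and the count minimum leaves fewer genes. Against genes of like span, 4 genes with an interval off 1 crossed it, Cdk14 to 0.966, Pak3 to 0.960, Hipk2 to 0.984 and Cdk4 to 1.12. All members were classed by symbol as kinases or subunits, so leaving out others removed 0 genes. Genes near 100 counts have the widest intervals.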
